A study of Mus musculus with 8 samples.

Results

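The nuclear genes for respiratory complexes II to V and for cytochrome c were followed in hearts of Pus1 mutant mice. The members were the genes Sdha, Sdhb, Sdhc, Sdhd, Cycs and Cyc1 and all genes whose symbols begin with Uqcr, with Cox followed by a digit from 4 to 8, or with Atp5. Of 49 such genes named on the array, 47 were measured, among 21823 measured features and 13711 measured named genes. They comprised 4 genes of complex II, 9 of complex III, the cytochrome c gene Cycs, 16 genes of complex IV and 17 of complex V. A gene counted as measured if 4 or more of the 8 samples had its probe well above background by the scanner software's own call, and the brightest probe stood for the gene. All 47 were well above background in all 8 samples, and none was saturated or flagged as uneven in any of them. The other two, Cox7b2 and Cox8c, both known as testis forms of complex IV subunits, were well above background in 0 of 8 samples, so that no member stood near the limit of 4 samples.

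Hearts came from 4 mice labelled homozygous mutant for Pus1 and from 4 wild-type mice, with 2 females and 2 males of each genotype. All animals, aged 14 to 16 weeks, had been backcrossed to C57BL/6J for 5 generations, and RNA was taken from a heart piece that held both atrial and ventricular muscle. What was changed in the Pus1 gene is not stated in the labels, and a piece of whole heart holds several cell types. On each of 4 2-colour Agilent arrays a mutant heart was set against a wild-type heart matched for sex, females on arrays 1 and 2 and males on arrays 3 and 4. The mutant heart was labelled with Cy5 on arrays 1 and 3 and with Cy3 on arrays 2 and 4.

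Complexes II, III and IV pass electrons from succinate and from ubiquinol through cytochrome c to oxygen. Complex V, the ATP synthase, uses the proton gradient that complexes III and IV help to build. Most subunits of complexes II to V are encoded in the nucleus. A few core subunits of complexes III, IV and V are encoded in mitochondrial DNA and translated inside the organelle with its own transfer RNAs. Heart muscle is among the tissues richest in these complexes, and in rodents several complex IV subunits exist as a heart form and as a liver form encoded by separate genes. Pus1 encodes a pseudouridine synthase that modifies transfer RNAs of the cytosol and of mitochondria, and in humans its loss causes a myopathy with lactic acidosis and sideroblastic anaemia. The mitochondrially encoded subunits were not analysed here.

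Of the 47 members, 36 had an entry in the RefSeq table of promoter windows (build GRCm38.p6, 250 bases before to 50 bases after the annotated start), with 39 windows in all. The windows of 5 of the paired complex IV forms are shown because these forms are described apart in what follows, and the heart forms Cox7a1 and Cox8b can be read against the liver forms Cox6a1, Cox7a2 and Cox8a. They lie at chr5:115348909-115349208 (minus strand, Cox6a1), chr7:30183921-30184220 (plus strand, Cox7a1), chr9:79759804-79760103 (minus strand, Cox7a2), chr7:140900397-140900696 (minus strand, Cox8b) and chr19:7217567-7217866 (minus strand, Cox8a). Each reads 5′ to 3′ on the gene's strand, and capitals mark matches, on either strand, to the motifs named after the sequences, the E-box left aside.
Cox6a1: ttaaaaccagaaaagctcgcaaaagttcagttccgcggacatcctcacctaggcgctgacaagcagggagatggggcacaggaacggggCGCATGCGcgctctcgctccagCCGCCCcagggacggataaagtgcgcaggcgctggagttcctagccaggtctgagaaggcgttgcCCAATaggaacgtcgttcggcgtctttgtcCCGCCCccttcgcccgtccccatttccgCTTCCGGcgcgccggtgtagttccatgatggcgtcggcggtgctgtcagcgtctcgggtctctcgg
Cox7a1: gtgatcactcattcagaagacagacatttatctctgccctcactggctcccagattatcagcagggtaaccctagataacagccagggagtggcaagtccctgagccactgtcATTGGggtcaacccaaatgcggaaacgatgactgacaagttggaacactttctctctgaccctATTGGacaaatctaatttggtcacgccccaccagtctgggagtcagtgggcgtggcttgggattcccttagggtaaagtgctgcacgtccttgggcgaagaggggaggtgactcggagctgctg
Cox7a2: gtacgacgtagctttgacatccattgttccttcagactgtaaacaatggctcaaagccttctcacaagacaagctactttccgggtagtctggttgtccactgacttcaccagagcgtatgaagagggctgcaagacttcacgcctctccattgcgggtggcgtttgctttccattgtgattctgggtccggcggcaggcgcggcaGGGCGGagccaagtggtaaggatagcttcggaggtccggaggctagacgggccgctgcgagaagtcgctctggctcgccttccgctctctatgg
Cox8b: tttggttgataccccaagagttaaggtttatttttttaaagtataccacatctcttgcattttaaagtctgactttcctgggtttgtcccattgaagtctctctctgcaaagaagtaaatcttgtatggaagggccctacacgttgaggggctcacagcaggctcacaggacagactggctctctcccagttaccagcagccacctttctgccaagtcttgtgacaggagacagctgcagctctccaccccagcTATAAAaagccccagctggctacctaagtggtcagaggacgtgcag
Cox8a: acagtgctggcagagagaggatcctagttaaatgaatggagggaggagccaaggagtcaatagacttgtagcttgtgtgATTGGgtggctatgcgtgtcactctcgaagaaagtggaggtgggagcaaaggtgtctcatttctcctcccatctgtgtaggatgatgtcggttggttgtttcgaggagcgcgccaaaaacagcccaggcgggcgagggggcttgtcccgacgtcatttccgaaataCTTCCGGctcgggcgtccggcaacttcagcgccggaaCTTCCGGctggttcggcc
Both strands were searched, and matches of different motifs were counted separately even where they overlapped. The NRF1 letters CGCATGCG were present in 8 of the 39 member windows (20.5%) and in 1.87% of all 32851 windows in the table. Letters bound by ETS factors, CCGGAAG, were found in 33.3% of member windows against 8.86% of all windows. The shares for Sp1 (GGGCGG) were 35.9% in member windows and 35.7% in all windows. For the YY1 letters AAGATGG they were 10.3% in member windows and 6.34% in all windows, and for the box read CCAAT they were 53.8% in member windows and 37.4% in all windows. The TATA box, searched as TATAAA, was found in 7.69% of member windows against 13.6% of all windows. E-box letters, searched as CANNTG, were found in 66.7% of member windows against 72.3%, and the MEF2 motif in 0 of 39 member windows against 1.86% of all windows. Member windows held a median of 19 CpG dinucleotides, against 7 over all windows. Among the windows printed, the liver form Cox6a1 held NRF1, ETS, Sp1 and CCAAT matches and the liver form Cox8a held ETS and CCAAT matches. The liver form Cox7a2 held an Sp1 match and no NRF1, ETS or CCAAT match. The heart form Cox8b held a TATA match and the heart form Cox7a1 a pair of CCAAT matches. A match is a run of letters in a window and says nothing of binding, and the arrays measured no binding.

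The share of probes well above background ran from 44.7% to 54.6% in mutant hearts and from 46.3% to 53.8% in wild-type hearts. Pus1 itself averaged 7.25 ± 0.22 in mutant hearts and 9.10 ± 0.15 in wild-type hearts (normalized log2 intensity, SD, n = 4 each), with mutant over wild-type log2 ratios of -2.15, -1.68, -1.69 and -1.88 on arrays 1 to 4. All 6 cardiac myocyte markers listed, 4 of 5 ventricular ones and 3 of 7 skeletal muscle ones were measured. Of the skeletal muscle markers, Mybpc2 and Tnni2 were well above background in all 8 samples and Tnnt3 in 4. Myh1, Myh2, Myh4 and Actn3 were well above background in 0 of 8 samples. Atrial markers differed widely between the hearts of an array, with median log2 ratios of -1.13, 1.47, 0.32 and 3.39 over their 6 genes, and summed levels of 14.2 to 19.1 in mutant hearts and 13.6 to 17.5 in wild-type hearts. Fitted mutant over wild-type log2 ratios were above 0 for all 6 atrial markers (median 1.05) and all 4 smooth muscle markers (0.28). They were also above 0 for the 4 adipocyte markers measured of 7 listed (0.89). Ratios were below 0 for all 4 mesothelium markers (median -0.37) and the 3 lymphocyte markers measured of 6 listed (-0.13). Fibroblast and endothelial markers had medians of 0.06 each. Over all features, 9738 of 21823 ratios were above 0. Single arrays went the other way. On array 1 the medians were -0.14 for adipocyte and -0.34 for smooth muscle markers. On array 4 they were 0.12 for mesothelium and 0.32 for lymphocyte markers. Erythroid markers had median log2 ratios of 2.50, -2.35, -0.92 and -0.00 on arrays 1 to 4 over 7 of 9 genes. The part of these cell types in the results below was not tested.

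No subunit gene of complexes II to V passed the test for a difference between mutant and wild-type hearts. That test was limma on the within-array log2 ratios of mutant over wild type, with a dye term for each probe and Benjamini-Hochberg adjustment over all features. At an adjusted p under 0.05 it called 0 of the 47 members, and over all features it called 0%. At an unadjusted p under 0.05 there were also 0 of 47, against 1.03% of all features. Pus1, with a fitted log2 ratio of -1.85 ± 0.13 (SE, n = 4 arrays), had the lowest ratio of all features, with an unadjusted p of 7.67e-05 and an adjusted p of 1 in the same limma fit. The ratio of Pus1 was -2.83 from the scanner's processed signals and -2.84 from the series matrix. Fitted log2 ratios of the members ran from -0.19 for Cox7a2 to 0.22 for Cycs, with 23 above 0 and 24 below, and their median of -0.01 equalled the -0.01 of all features. The levels of mutant and wild-type hearts overlapped for all 47 members, where 0.706% of all features had groups that did not overlap. In bulk tissue, fewer cells of a type and less RNA per cell cannot be told apart.

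The size of a difference can be read from the intervals of the fit, which leave the dye part out of the error. The 95% interval of the mutant over wild-type ratio lay within 1.5-fold in either direction for 45 of 47 members, against 76% of all features. All 47 lay within 2-fold. The 2 members with wider intervals were Cycs (-0.27 to 0.70 on the log2 scale) and Cox6b2, known as a testis form (-0.74 to 0.41). Without the dye term, 41 of 47 members had intervals within 1.5-fold, against 72.1% of all features, and 47 within 2-fold. The intervals rest on 4 arrays and 2 residual degrees of freedom, with the spread shared across features by limma. Without the dye part, the median SD of the ratios was 0.15 in the members and 0.15 in the 36 complex I subunit genes. All 47 members were well above background in all 8 samples, against 17947 of 21823 features.

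**Figure D1:**
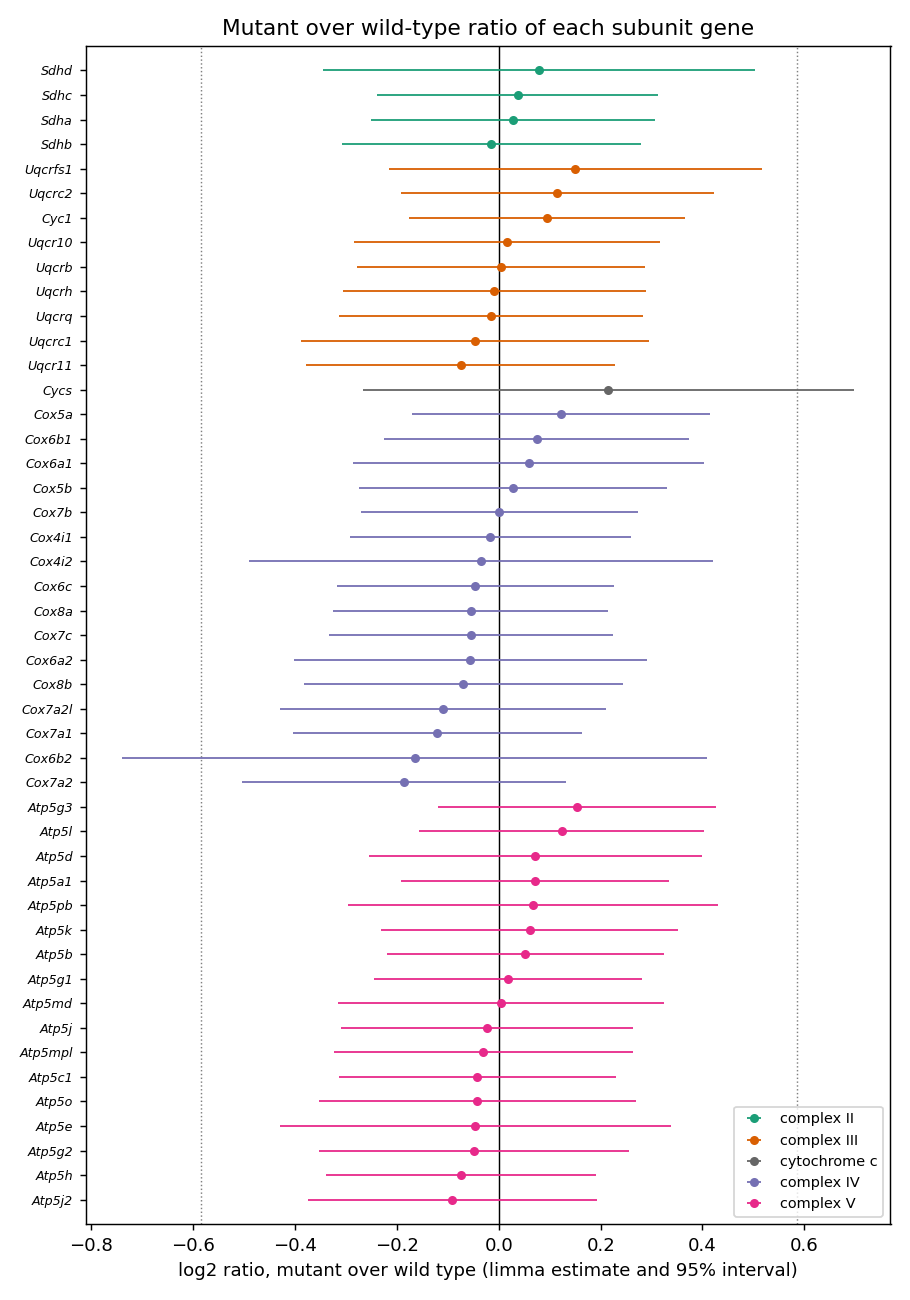
Fitted log2 ratio of mutant over wild-type hearts (horizontal axis) for each of the 47 genes (rows), coloured by complex; points are limma estimates with the dye term and lines are 95% intervals from 4 arrays. Every interval spans 0, and only those of Cycs and Cox6b2 pass the dotted lines at 1.5-fold.

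Complex II, succinate dehydrogenase, oxidises succinate in the matrix and is the only complex here encoded wholly in the nucleus. Its flavoprotein subunit Sdha had levels of 15.43, 14.92, 15.46 and 15.17 in mutant hearts 1 to 4, against 15.15, 15.13, 15.34 and 15.25 in wild-type hearts 1 to 4 (normalized log2 intensity, as are all levels below). The mutant values spanned the wild-type range on both sides. The iron-sulfur subunit Sdhb stood at 17.35, 16.71, 17.41 and 16.67 in mutant hearts, against 17.01, 17.04, 16.90 and 17.24 in wild-type hearts. Here the hearts labelled in Cy5, mutants 1 and 3 and wild types 2 and 4, were above all hearts labelled in Cy3. For the membrane anchors Sdhc and Sdhd the fitted log2 ratios were 0.04 ± 0.10 and 0.08 ± 0.16 (SE, n = 4 arrays), and for Sdha and Sdhb 0.03 ± 0.10 and -0.01 ± 0.11. The median over the complex was 0.03.

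Complex III carries electrons from ubiquinol to cytochrome c. The largest fitted log2 ratio among its 9 genes was that of Uqcrfs1, the Rieske iron-sulfur protein (0.15 ± 0.14, SE, n = 4 arrays), with levels of 16.08, 15.09, 16.11 and 15.73 in mutant hearts, against 15.25, 15.67, 15.63 and 15.87 in wild-type hearts. Mutants 1 and 3 were the highest hearts and mutant 2 the lowest. The core subunits Uqcrc1 and Uqcrc2 had ratios of -0.05 ± 0.13 and 0.11 ± 0.12, and Cyc1, cytochrome c1, which hands the electrons on, 0.09 ± 0.10. Uqcrc2 was printed in 10 spots, whose log2 ratios ran from 0.47 to 0.65 on array 1 and from 0.25 to 0.33 on array 3. They ran from -0.33 to -0.22 on array 2 and from -0.26 to -0.00 on array 4, where the spots of these 2 arrays overlapped. Ratios of the small subunits were -0.08 ± 0.11 for Uqcr11, -0.01 ± 0.11 for Uqcrh, the hinge protein, and -0.02 ± 0.11 for Uqcrq. Uqcrb and Uqcr10 lay between 0.00 and 0.02. The median over the complex was 0.00.

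Cycs encodes cytochrome c itself, the soluble carrier between complexes III and IV. It had levels of 16.54, 15.46, 16.43 and 16.10 in mutant hearts, against 15.67, 16.00, 16.08 and 15.92 in wild-type hearts. The mutant mean was 16.13 ± 0.49 and the wild-type mean 15.92 ± 0.18 (SD, n = 4 each), and mutant 2 was the lowest of all 8 hearts. The fitted log2 ratio was 0.22 ± 0.18 (SE), higher on 3 of 4 arrays, with an unadjusted p of 0.292 and an adjusted p of 1 from limma. With an array left out the ratio of Cycs was 0.09 without array 1, 0.40 without array 2, 0.34 without array 3 and 0.03 without array 4. Its 3 probes gave mean ratios between 0.19 and 0.22. They differed on single arrays: the probe used had 0.87, -0.55, 0.35 and 0.19 on arrays 1 to 4. Another had 0.15, 0.27, 0.18 and 0.18, above 0 on all 4. The remaining probe had 0.71, -0.15, 0.31 and -0.02, below 0 on arrays 2 and 4.

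Complex IV, cytochrome c oxidase, reduces oxygen to water, and its nuclear subunits surround a catalytic core made in the mitochondrion. Of its 16 measured genes, 11 had a ratio below 0 and 5 above, with a median of -0.05, and 0 passed the test. With median centring in place of loess the median of complex IV was 0.04 and that of all features 0.08. Cox7a2 had the lowest ratio (-0.19 ± 0.12, SE, n = 4 arrays, unadjusted p 0.184 and adjusted p 1 from limma). Cox5a, a matrix-side subunit, had the highest at 0.12 ± 0.11. Cox7a2l, a relative of the Cox7a forms that links complexes III and IV in supercomplexes, had -0.11 ± 0.12, with 3 probes between -0.16 and -0.11. Cox6b2, at 8.84 ± 0.50 in mutant hearts and 9.01 ± 0.05 in wild-type hearts (SD, n = 4 each), had -0.17 ± 0.21. Cox5b, Cox6b1, Cox6c, Cox7b and Cox7c lay between -0.06 and 0.07.

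The heart and liver forms of complex IV subunits were compared by the difference of their log2 ratios on each array, which sets no probe's level against another's. In rodents Cox6a2, Cox7a1 and Cox8b are the forms of heart and skeletal muscle, and Cox6a1, Cox7a2 and Cox8a the forms of liver and most other tissues. The heart form Cox6a2 had levels of 18.58, 17.90, 18.55 and 18.04 in mutant hearts, against 18.59, 18.13, 18.10 and 18.47 in wild-type hearts. Its liver counterpart Cox6a1 had 15.91, 15.52, 15.68 and 15.70 in mutant hearts, against 15.52, 15.70, 15.71 and 15.63 in wild-type hearts. In both genes the groups overlapped, with mutant 2 lowest in Cox6a2 and mutant 1 highest in Cox6a1. Fitted ratios were -0.06 ± 0.13 for Cox6a2 and 0.06 ± 0.13 for Cox6a1 (SE, n = 4 arrays).

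For the next pair, the heart form Cox7a1 had levels of 18.12, 17.27, 17.99 and 17.81 in mutant hearts, against 17.98, 17.75, 17.88 and 18.06 in wild-type hearts. Mutant 2 lay below all other hearts, and mutant 1 above them. The liver form Cox7a2 stood at 15.49, 15.52, 15.82 and 15.34 in mutant hearts, against 15.77, 15.78, 15.71 and 15.65 in wild-type hearts. Here 3 mutant hearts were below all wild-type hearts and mutant 3 was above them. Both forms had ratios below 0, at -0.12 ± 0.11 for Cox7a1 and -0.19 ± 0.12 for Cox7a2, and neither passed the test.

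In the Cox8 pair, the heart form Cox8b had levels of 17.61, 17.28, 17.85 and 17.49 in mutant hearts, against 17.65, 17.59, 17.51 and 17.76 in wild-type hearts. The mutant range enclosed the wild-type range. The liver form Cox8a stood at 15.74, 15.51, 15.77 and 15.72 in mutant hearts, against 15.75, 15.57, 15.91 and 15.72 in wild-type hearts. With the probes used, Cox8a was the 1 member whose ratio had the same sign on all 4 arrays, at -0.01, -0.06, -0.14 and -0.01. It also had the smallest spread between arrays (SD 0.06). The other probe of Cox8a did not keep 1 sign, with 0.14, -0.12, -0.25 and -0.03 on arrays 1 to 4. The fitted ratio of Cox8a, -0.05 ± 0.10 (0.05 with median centring), did not pass the test.

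Cox4i2 is known as a lung form of the subunit that most tissues make as Cox4i1. Cox4i2 had levels of 9.86, 9.90, 9.50 and 9.65 in mutant hearts, against 9.71, 9.54, 10.03 and 9.76 in wild-type hearts. Both female mutants were above their wild-type partners and both male mutants below. Cox4i1 stood at 18.32, 17.66, 18.09 and 17.87 in mutant hearts, against 18.26, 17.83, 17.85 and 18.07 in wild-type hearts, without a split by sex.

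**Figure D2:**
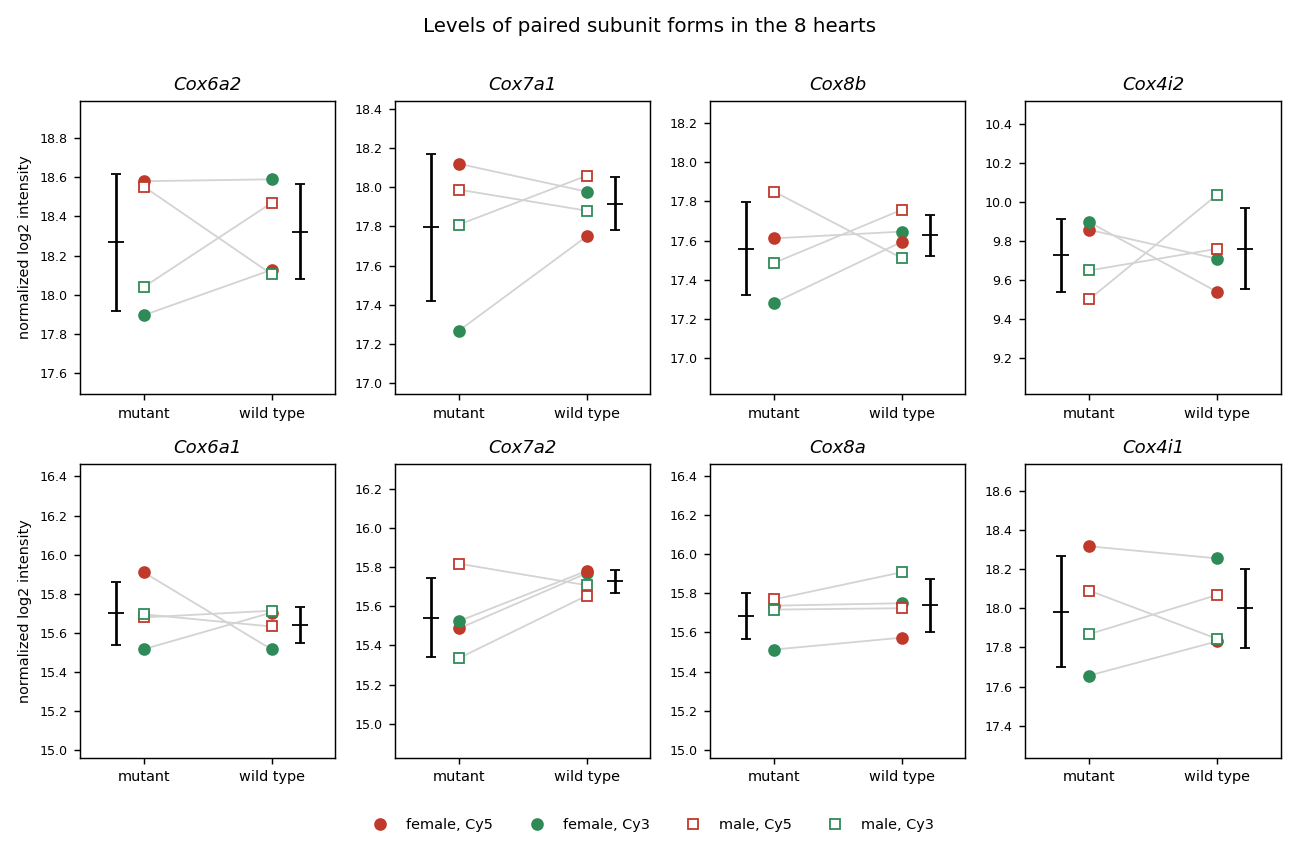
Normalized log2 intensity (vertical axes, each spanning the same 1.5 log2 units) of the paired complex IV forms in the 4 mutant hearts (left) and 4 wild-type hearts (right), heart or lung form above and liver or general form below. Grey lines join the hearts of an array, colours give the dye, filled circles are females, open squares are males, and black bars are means with SD; the groups overlap in all 8 genes.

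None of the 4 pairs passed an exact 2-sided sign-flip test of this difference over the 4 arrays. In this design p cannot go below 0.125. Unlike the fitted ratios, this test and its SDs took out no dye term. The dye part of the difference was 0.15, 0.14, 0.24 and -0.33 for the pairs in the order given next. The difference was -0.11 ± 0.44 for Cox6a2 minus Cox6a1 (SD, n = 4, exact p = 0.625) and 0.07 ± 0.27 for Cox7a1 minus Cox7a2 (SD, n = 4, exact p = 0.75). It was -0.01 ± 0.35 for Cox8b minus Cox8a (SD, n = 4, exact p = 0.875) and -0.02 ± 0.55 for Cox4i2 minus Cox4i1 (SD, n = 4, exact p = 1). After Benjamini-Hochberg adjustment over the 4 pairs each p was 1. Each difference changed sign when 1 array or another was left out. Over the 4 ways of leaving out 1 array it ran from -0.34 to 0.11 for Cox6a2 minus Cox6a1 and from -0.04 to 0.17 for Cox7a1 minus Cox7a2. For Cox8b minus Cox8a it ran from -0.14 to 0.11, and for Cox4i2 minus Cox4i1 from -0.23 to 0.20. All 3 heart forms had fitted ratios below 0 (median -0.07), except that with median centring Cox6a2 stood at 0.01 and Cox8b at 0.01 and without array 1 at 0.06 and 0.02. Of the 3 liver forms Cox6a1 alone was above 0 (median -0.05), and it stood at -0.05 without array 1 and at -0.00 without array 4.

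Complex V makes ATP with a catalytic head, F1, which is driven by a turning membrane ring and held in place by a stalk. Its 17 genes had 9 ratios above 0 and 8 below, with a median of 0.00, and 0 passed the test. Among the head subunits, the alpha subunit gene Atp5a1 had 17.54, 16.84, 17.63 and 17.08 in mutant hearts, against 17.05, 17.20, 17.15 and 17.41 in wild-type hearts. Its ratio was 0.07 ± 0.10 (SE, n = 4 arrays), and the 4 hearts in Cy5 were again above the 4 in Cy3. The delta subunit gene Atp5d had 0.07 ± 0.12. The median over the 5 head genes was 0.05, and over the other 12 genes -0.01.

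The ring subunit c is encoded by Atp5g1, Atp5g2 and Atp5g3, which yield the same mature protein. Atp5g3 had the largest ratio of complex V, with levels of 17.70, 16.90, 17.95 and 17.19 in mutant hearts, against 17.05, 17.30, 17.14 and 17.63 in wild-type hearts, and a ratio of 0.15 ± 0.10. It was higher on arrays 1 and 3, by 0.65 and 0.81, and lower on arrays 2 and 4, at -0.40 and -0.44. Atp5g1 showed 0.51, -0.45, 0.48 and -0.47 on arrays 1 to 4, which fitted to 0.02 ± 0.10. Atp5g2 had -0.05 ± 0.11.

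Among the subunits of the stalk and membrane part, Atp5l, subunit g, had a ratio of 0.12 ± 0.10, and its 5 probes gave 0.04 to 0.12. The lowest ratios were those of Atp5j2, subunit f (-0.09 ± 0.11), and Atp5h, subunit d (-0.07 ± 0.10). Atp5o, which joins the head to the stalk, had -0.04 ± 0.12. Atp5k, subunit e, and Cox6a1 of complex IV are the members within 20 Mb of Pus1 on chromosome 5 in the RefSeq table. Both had a ratio of 0.06. The 2 probes of Atp5k gave -0.01 and 0.06. The remaining 7 genes, Atp5b, Atp5c1, Atp5e, Atp5j, Atp5md, Atp5mpl and Atp5pb, lay between -0.05 and 0.07.

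Averaged over the 4 arrays, probes of the same gene gave close values. For 17 members more than 1 probe passed the filter, and the means of their probes differed by a median of 0.03 and at most 0.08 on the log2 scale. In 3 of these genes the probes lay on opposite sides of 0. On single arrays the probes of a gene could differ by more. The probe of Uqcrq used here had log2 ratios of 0.23, -0.07, 0.15 and -0.37 on arrays 1 to 4, and its other probe -0.33, 0.25, 0.04 and -0.08. For Atp5k the probes gave 0.06 and -0.36 on array 1.

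The ratios of the members moved with the dye in which the mutant heart was labelled. On array 1, with the mutant in Cy5, 34 of 47 members had a ratio above 0, and on array 3, also in Cy5, 37 did. On array 2, with the mutant in Cy3, 11 were above 0, and on array 4, also in Cy3, 10 were. The medians over all members were 0.22, -0.22, 0.15 and -0.16 on arrays 1 to 4, while those of all features were 0.04, 0.02, -0.03 and -0.01. In 23 members, or 48.9%, the signs were plus, minus, plus and minus over the 4 arrays, a pattern that 11.5% of all features had. In 2 members the signs ran the opposite way.

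Uqcrh had the largest dye term of the members. Its levels were 17.60, 16.71, 17.81 and 17.02 in mutant hearts, against 17.13, 17.41, 17.07 and 17.58 in wild-type hearts. The 4 hearts in Cy5 all lay above the 4 in Cy3, and the array ratios of 0.47, -0.69, 0.74 and -0.56 fitted to a genotype ratio of -0.01 ± 0.11 (SE, n = 4 arrays) and a dye term of 0.61. In 8 of 47 members (17%) the hearts in Cy5 all lay above those in Cy3, against 4.33% of all features. These were Sdhb, Uqcrh, Atp5a1, Atp5g3 and Atp5l, and, named only for this pattern after their values were seen, Cox7b, Atp5b and Atp5j.

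**Figure D3:**
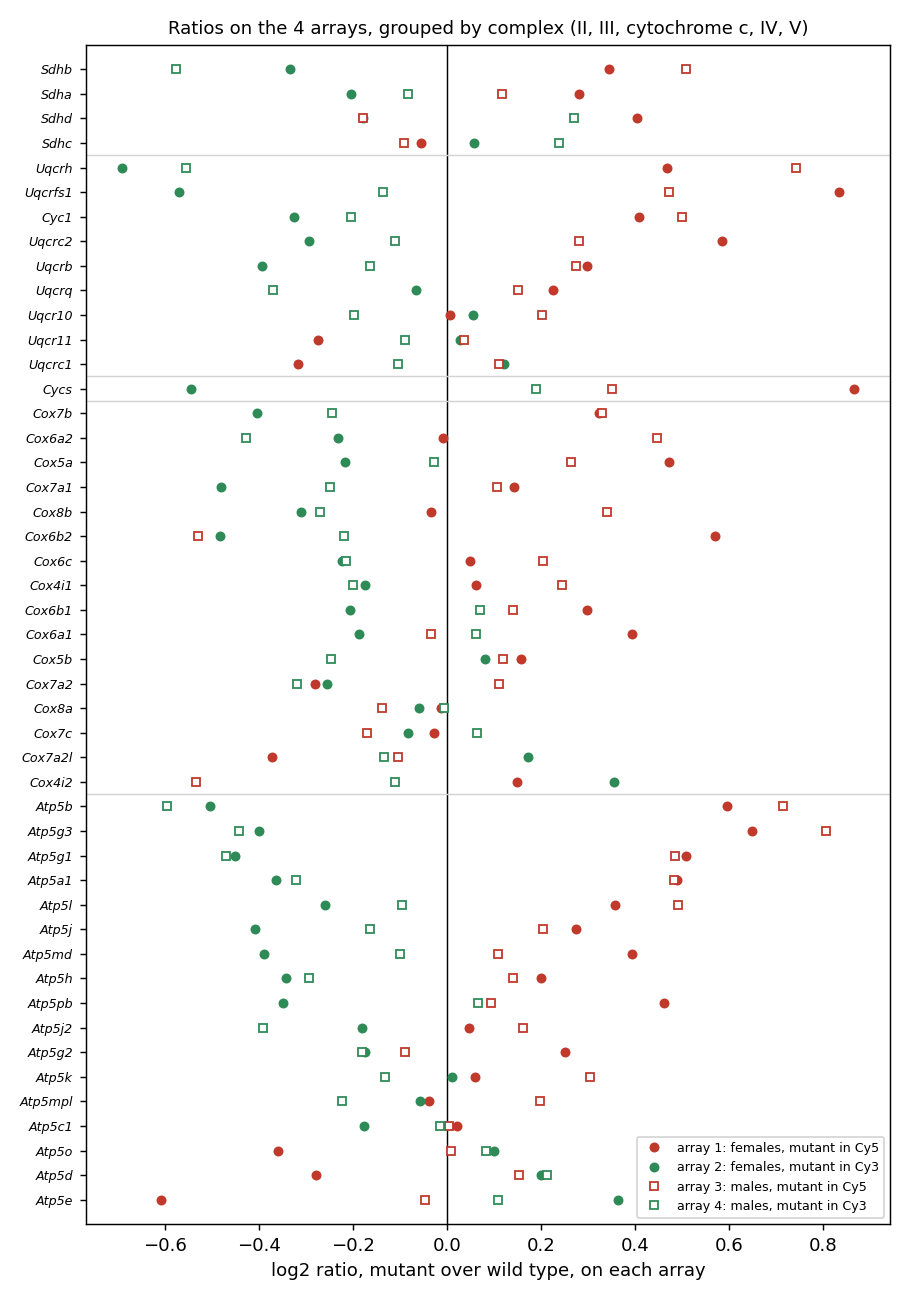
Log2 ratio of mutant over wild type (horizontal axis) on each of the 4 arrays for the 47 genes (rows, sorted within each complex by the dye term); red symbols are arrays with the mutant in Cy5, green with the mutant in Cy3, filled circles females and open squares males. In 23 genes both red symbols lie above 0 and both green ones below.

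The dye term of the fit, positive where Cy5 read brighter than Cy3, was above 0 in 37 of 47 members, against 46.8% of all features. It ran from -0.28 to 0.61 with a median of 0.19, against -0.02 over all features. At an unadjusted p under 0.05 in limma it was called in 11 of 47 members, against 9.87% of all features, and after adjustment in 0 members and 0 features. Without the dye part, the median SD of a member's ratio over the arrays was 0.15, and with it 0.30, while all features had 0.25 and 0.31. Each pair of hearts was hybridised in 1 orientation, so that a dye effect and a difference between the animals of the arrays cannot be told apart.

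By complex, the median ratios on arrays 1 to 4 were 0.31, -0.19, 0.01 and 0.08 for complex II and 0.30, -0.29, 0.27 and -0.16 for complex III. They were 0.10, -0.21, 0.11 and -0.21 for complex IV and 0.25, -0.26, 0.16 and -0.16 for complex V. Complexes III, IV and V thus alternated in sign with the dye, and complex II did not on array 4, where Sdhc and Sdhd were above 0. On array 3 Sdhc and Sdhd were below 0 (-0.09 and -0.18). The full alternating sign pattern was present in 10 of 17 genes of complex V and 6 of 9 of complex III. It was present in 5 of 16 genes of complex IV and 2 of 4 of complex II. The 36 subunit genes of complex I measured on the same arrays had medians of 0.16, -0.17, 0.18 and -0.10, with 29 of 36 dye terms above 0. The 6 cardiac myocyte markers had 0.45, -0.31, 0.26 and -0.33. Their part in the members' ratios was not tested.

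**Figure D4:**
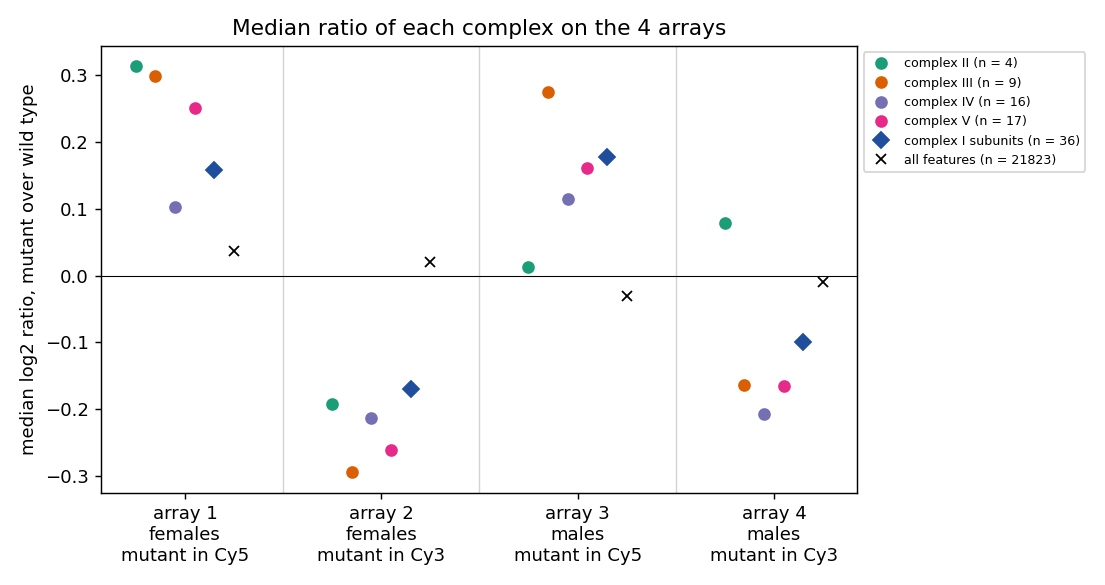
Median log2 ratio of mutant over wild type (vertical axis) on each array for complexes II to V, the 36 complex I subunit genes and all 21823 features; n is the number of genes. Complexes III, IV, V and I lie above 0 on arrays 1 and 3 and below 0 on arrays 2 and 4, and all features stay within 0.04 of 0.

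Across the 47 genes, which are not independent replicates, arrays of opposite orientation correlated at -0.77 (1 and 2), -0.56 (3 and 4), -0.55 (2 and 3) and -0.22 (1 and 4). Arrays of the same orientation correlated at 0.41 (1 and 3) and 0.44 (2 and 4). Over all features the same pairs, in this order, had 0.03, 0.31, -0.69 and -0.49 for opposite orientation. For the same orientation they had -0.315 and -0.16. These coefficients describe the genes on shared arrays and carry no test. The levels also varied more between mutant hearts than between wild-type hearts in 37 of 47 members (78.7%), against 58.8% of all features. The median SD of a member was 0.27 in mutant hearts and 0.14 in wild-type hearts (n = 4 each). Over all features it was 0.22 in mutant hearts and 0.19 in wild-type hearts.

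The genotype effect was also compared between females and males, as the difference of the ratio in females minus that in males, with 2 arrays a sex and 1 residual degree of freedom. In limma 0 of 47 members passed an adjusted p of 0.05, against 9.31% of all features. That count over all features was 2031, and it was 0 from the scanner's processed signals, from the series matrix, with median centring, without the dye term or with channels fitted separately. At an unadjusted p under 0.05 there were also 0 members. Differences ran from -0.22 for Atp5d to 0.57 for Cox4i2, with 17 members above 0. Within females alone 0 members were called, against 0.00916% of features, and within males alone 0 members, against 3.34%. Of the atrial markers, 4 of 6 were called for the difference between sexes, and none of the members was. In each of these 4 markers, arrays of the same sex lay further apart than the sexes did. Myl4, for example, had log2 ratios of -1.57, 1.88, 0.38 and 5.77 on arrays 1 to 4, and a sex difference of -2.92. Whether sex or the single hearts lay behind these calls was not tested.

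Cox4i2 had the largest difference between sexes. Its ratios were 0.15 and 0.36 in females and -0.53 and -0.11 in males, which fitted to 0.25 in females and -0.32 in males and a difference of 0.57 (95% interval -0.01 to 1.16, adjusted p 0.317 from limma). Cox6b2 followed with 0.42, from ratios of 0.57 and -0.48 in females and -0.53 and -0.22 in males, where the female arrays differed from each other by more than the sexes did. In complex III the largest were Uqcrh at -0.21 and Uqcrq at 0.19, and in complex V Atp5d at -0.22 and Atp5o at -0.18. The intervals of these differences were wide, that of Atp5d running from -0.82 to 0.38.

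The assembly factors, proteins that build the complexes without staying in them, were taken as separate lists. The 4 measured factors of complex II had a median ratio of 0.12, and 0 were called. Their fitted ratios lay above 0 with all 4 arrays, but not when an array was left out: Sdhaf1 stood at -0.16 without array 1, and Sdhaf2 at -0.09 and Sdhaf4 at -0.04 without array 4. Sdhaf3 and Sdhaf4, which help to mature the catalytic subunits, had 0.17 ± 0.15 and 0.16 ± 0.17 (SE, n = 4 arrays), and Sdhaf3 had 0.01 without array 4. Of 5 of 6 complex III factors measured, 4 were above 0 (median 0.01), led by Bcs1l, which inserts the Rieske protein, at 0.12 ± 0.12, and by Ttc19 at 0.10 ± 0.13. Without array 1 Bcs1l had 0.04, and without array 3 Ttc19 had 0.00. Of 21 of 24 complex IV factors measured, 15 were above 0 (median 0.03).

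Cox18, which helps to insert a mitochondrially made subunit of complex IV into the membrane, had the largest ratio of all these lists. Its ratios were 1.35, -0.37, 0.60 and 0.34 on arrays 1 to 4, so that it was higher in the mutant on 3 of 4 arrays. The fitted value was 0.48 ± 0.20 (SE, n = 4 arrays, unadjusted p 0.0688 and adjusted p 1 from limma). With an array left out Cox18 ranged from 0.29 without array 1 to 0.67 without array 3. Sco1, a copper chaperone for complex IV, had 0.18 ± 0.10, but 0.45 from processed signals, 0.44 from the series matrix and 0.05 with the mean over probes. All 3 complex V factors were measured, 2 above 0, with 0.14 ± 0.14 for Tmem70 (0.04 without array 4) and 0.04 ± 0.11 for Atpaf2. In none of the 4 lists did a gene pass an unadjusted p of 0.05, against the 1.03% of all features given above.

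For comparison, the 36 complex I genes had 17 ratios above 0 and 19 below with a median of -0.01, and 0 called at either threshold.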

How the data were processed

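RNA of 8 mouse hearts was measured on 4 2-colour arrays, 100 ng of RNA a sample per the labels. The authors scanned 1 slide in 1 scan and extracted spots with Agilent Feature Extraction 10.7.3.1, per the file headers, so no batch could be tested. Deposited intensity values were the median brightness of each spot and its surroundings, taken where mean signals had been planned. The authors' deposited log2 series matrix served as an alternative. How it was normalized is not given in the sources used here, except that its columns had medians of -0.02 to 0.06, each probe was centred on its median, and its differences followed those of the scanner's processed signals with slopes of 0.988 to 1.04. Number and brightness of arrays set the precision, and no counts lie behind the values.

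Background was corrected with normexp (offset 50) and ratios normalized within arrays by loess in limma 3.58.1 (R 4.3.3), with control and uneven spots at weight 0. Levels per sample are separate channels after Aquantile. Probes were named through RefSeq accessions, of which 21865 of 23171 on the whole array had a symbol. Probes well above background in at least 4 of 8 samples (28528) were kept, and the brightest stood for a gene. Ratios of mutant over wild type were fitted with limma, with a genotype and a dye coefficient, adjusted over 21823 features (threshold 0.05). The difference between sexes added a sex term. The fit was tested on simulated data.

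The labels pair the hearts by array. Deviations of the 2 hearts of an array from their group means correlated at -0.49, -0.11, -0.38 and 0.50 across features. The labels name individuals, so n counts animals. The members, lists and tests were chosen with earlier results of these data known. Genes are named by a rule that took Pus1, complex II, Cycs and Cyc1, the paired forms and the genes of subunit c. It also took up to 5 members each of complexes III to V by the genotype p and 3 by the sex difference p, members within 20 Mb of Pus1, and 2 genes per assembly factor list.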

Additional observations from a re-analysis of the deposited data

Results flagged for a closer look

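A few values were picked out by simple rules as standing apart from the rest of their group. Among 4 arrays, a value is picked out when its gap to the nearest other value is large against the whole range. Chance alone does this for about 1 group in 20. At that rate, a search over the 47 measured members would pick out some by chance alone. The picks of Cox7a2 and Atp5d below are therefore no evidence of a difference. Cox7a2 was picked out on array 3, with a log2 ratio of mutant over wild type of 0.11 against -0.28, -0.26 and -0.32 on arrays 1, 2 and 4. Atp5d was picked out on array 1, at -0.28 against 0.20, 0.15 and 0.21 on arrays 2, 3 and 4. Cox4i2 was picked out because both female ratios were above 0 (0.15 and 0.36) and both male ratios below (-0.53 and -0.11), a difference of females minus males of 0.57. The test of that difference itself gave an adjusted p of 0.317 in limma. As the largest such difference among the 47 members, that of Cox4i2 is no evidence of a difference between sexes either.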

How the results depend on the processing

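No member was called for genotype or for the difference between sexes under any alternative run. Over all features the genotype comparison called 0 as reported, and 1 under each of 4 alternatives: median centring, channels fitted separately without a replicate block (1), channels fitted separately with arrays as random blocks (1), and a sex by genotype term (1). That gene was Pus1 each time, lower in the mutant. Leaving out each array in turn gave 0 calls each time. The sex difference called 2031 features, 2005 of them with the larger ratio in females, but 0 from processed signals, 0 from the series matrix, 0 with median centring, 0 without the dye term, 0 with channels fitted separately, both without a replicate block and with a random one (0 each), and 1242 when all 8 samples had to be above background. The cause was not tested. The sex difference could not be fitted with an array left out. The median of all members ran from -0.03 with scaling between arrays to 0.09 with median centring, where all features shifted to 0.08. Complex IV's median stayed below 0 in all alternatives but median centring (0.04). The members' dye median was 0.16 to 0.21 over the alternatives other than median centring (1.34, against 0.52 over all features).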
